A study of Mus musculus with 6 samples.

Results

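Oligodendrocytes wrap axons of the central nervous system in myelin, and the genes of that lineage were followed here in the hippocampus of mice with and without a duplicated chromosome segment. The 31 genes were listed by symbol as lineage and myelin genes, a rule that uses no measured value, although earlier results of these data were known when the list was drawn up. Of the 31, 30 had a probe set that names that gene alone, and each was read from its probe set of the highest mean over the 6 arrays, among 18193 genes measured in that way. The 1 gene without such a probe set was Trf, the iron carrier transferrin, whose probe set also names a second gene, so no value is given for it. The array held 3 mice heterozygous for the duplication Dp(11)17/+, which models Potocki-Lupski syndrome, and 3 mice of genotype +/+. All 6 were labelled as males of the strain C57BL/6-Tyr c-Brd, aged 11 to 14 weeks, with hippocampus as the tissue. Each array's record names 1 individual, although the labelling protocol mentions pools. The duplication is in the germline, so no driver or cell type limits it. Mice are numbered 1 to 3 within each genotype, in the order of their records. No member lies within the duplicated segment. Cnp and Aspa lie on the same chromosome, 11, outside the segment.

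Oligodendrocytes arise from dividing precursors that carry the growth factor receptor Pdgfra and the surface proteoglycan Cspg4. Precursors leave the cell cycle, pass through a stage marked by Gpr17, Bcas1 and Enpp6, and then make the proteins and lipids of the myelin sheath. Olig1, Olig2 and Sox10 act through much of the lineage, while Myrf turns on the genes of the sheath. In rodents, myelin is dense in the fimbria and alveus along the hippocampus and in the thalamus, and sparser in the layers of hippocampal cell bodies. In whole-tissue RNA, fewer cells of a type and less RNA per cell cannot be told apart.

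Some libraries went against their labels or stood apart. In duplication mouse 1 the log2 value of Xist, made from the inactive X chromosome of females, was 9.13, against 3.06 to 3.69 in the others, and those of the Y-linked genes Eif2s3y and Kdm5d were 2.48 and 2.47, against at least 5.41 and 4.70. In duplication mouse 3, the mean log2 value of thalamus and habenula markers exceeded that of the wild-type group by 2.06 and that of striatum markers by 1.80, while those of CA1 pyramidal cells and dentate granule cells differed by -1.57 and -1.66. Values without mouse 1 or mouse 3 of the duplication group are given beside most counts and medians of the members. Where they move a value most, they are given beside single genes. Other gene lists and further probe sets were read with all 6 mice. Srebf1 and Rai1, which lie in the segment, had log2 fold changes of 0.63 (SE 0.09) and 0.39 (SE 0.11), with every duplication mouse above every wild-type mouse.

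The bases before the start sites of a few members are shown before their measured values, as a description alone. RefSeq promoter windows of the build GRCm38.p6 were found for 22 of the 31 members, 30 windows in all, and the 250 bases before each start site were searched on both strands. The motifs were ACAAAG, the core bound by Sox proteins such as Sox10, and CAGCTG, an E-box of the kind bound by Olig2. The third was CTGGNAC, searched as a loose pattern for Myrf that allows any base at N. ACAAAG was found in 10 of the 30 member windows, which belong to 7 genes, and in 16.5% of all 32851 windows. CTGGNAC was found in 8 of the 30, which belong to 6 genes, and in 16.1% of all windows. CAGCTG was found in 1 of the 30, that of Aspa, and in 13% of all windows. Several genes have more than 1 window, and windows of Mag share bases, so these counts are not independent. Matches are letters in a sequence. They were not tested as binding sites or against the values of the mice.

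Below are Mag and Cnp, which hold both ACAAAG and CTGGNAC, and Mog, one of the genes that varied most between mice. Gjb1 and Lpar1, not shown, also hold both motifs over their windows. Mobp, which holds 6 matches to the Sox core, and the precursor gene Pdgfra, which holds no match to any of the 3, follow. Myelin genes such as Mal, Cldn11, Ermn and Ugt8a also hold no match, so the genes shown do not stand for their groups. Capitals mark every match, on either strand. Mag is at chr7:30914864-30915113 on the minus strand, Cnp at chr11:100574689-100574938 on the plus strand, Mog at chr17:37023399-37023648 on the minus strand, Mobp at chr9:120149492-120149741 on the plus strand and Pdgfra at chr5:75152001-75152250 on the plus strand.
Mag: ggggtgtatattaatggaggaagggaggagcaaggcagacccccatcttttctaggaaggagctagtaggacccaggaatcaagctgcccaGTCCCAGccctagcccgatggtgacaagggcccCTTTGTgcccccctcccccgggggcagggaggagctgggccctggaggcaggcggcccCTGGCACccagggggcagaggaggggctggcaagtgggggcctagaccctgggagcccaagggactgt
Cnp: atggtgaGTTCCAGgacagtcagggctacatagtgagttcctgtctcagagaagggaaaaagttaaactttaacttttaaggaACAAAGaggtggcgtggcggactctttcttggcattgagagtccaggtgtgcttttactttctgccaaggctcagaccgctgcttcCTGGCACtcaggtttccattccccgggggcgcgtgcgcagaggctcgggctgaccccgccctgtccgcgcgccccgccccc
Mog: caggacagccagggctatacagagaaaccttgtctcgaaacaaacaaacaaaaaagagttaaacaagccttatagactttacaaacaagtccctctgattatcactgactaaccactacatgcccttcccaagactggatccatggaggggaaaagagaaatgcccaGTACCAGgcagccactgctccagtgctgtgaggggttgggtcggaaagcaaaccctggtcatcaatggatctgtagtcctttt
Mobp: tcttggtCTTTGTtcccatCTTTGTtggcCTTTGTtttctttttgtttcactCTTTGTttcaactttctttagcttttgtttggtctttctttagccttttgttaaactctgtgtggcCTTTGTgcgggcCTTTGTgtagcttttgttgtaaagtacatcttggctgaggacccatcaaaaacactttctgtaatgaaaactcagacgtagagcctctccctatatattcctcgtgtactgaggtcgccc
Pdgfra: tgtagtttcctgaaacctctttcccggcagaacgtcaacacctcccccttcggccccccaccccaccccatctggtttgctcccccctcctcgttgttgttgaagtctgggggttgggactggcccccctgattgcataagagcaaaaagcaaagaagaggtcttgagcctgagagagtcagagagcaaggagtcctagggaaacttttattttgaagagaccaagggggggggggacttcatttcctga
In Mag, CTGGNAC matches begin 159 and 68 bases before the start site and the ACAAAG match 126 bases before it. In Cnp the CTGGNAC matches begin 243 and 81 bases before the start site, and in Mog the single one begins 83 bases before it.

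The comparison of duplication with wild-type mice asked whether the myelin and lineage genes differ between the genotypes. Values leaned higher in the duplication group, in 28 of the 30 genes, and the median of the log2 fold changes was 0.21, where 41.7% of all 18193 genes had a value above 0 and their median was -0.02. The count of higher genes was 23 without duplication mouse 3 (median 0.07), 30 without duplication mouse 1 (0.32), 30 without wild-type mouse 1 (0.30), 24 without wild-type mouse 2 (0.13) and 25 without wild-type mouse 3 (0.14), and with array weights it was 27 (0.11). None of the 30 passed the limma test adjusted over all 45037 probe sets, nor did any other probe set (0%), and the smallest adjusted p among the members was 0.994. An unadjusted p under 0.05 was reached by 1 of the 30, Gpr17, against 2.82% of all probe sets. That count was 3 without duplication mouse 1, 2 without duplication mouse 2, 0 without duplication mouse 3, 5 without wild-type mouse 1, 2 without wild-type mouse 2 and 0 without wild-type mouse 3. The matching shares of all probe sets were 2.29%, 6.14%, 1.9%, 5.82%, 2.59% and 1.89%. The spread between mice of the same genotype was as large as the lean. In 27 of the 30 genes the range over the 3 wild-type mice was larger than the difference between the group means, which was also so for 85.3% of all genes.

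**Figure D1:**
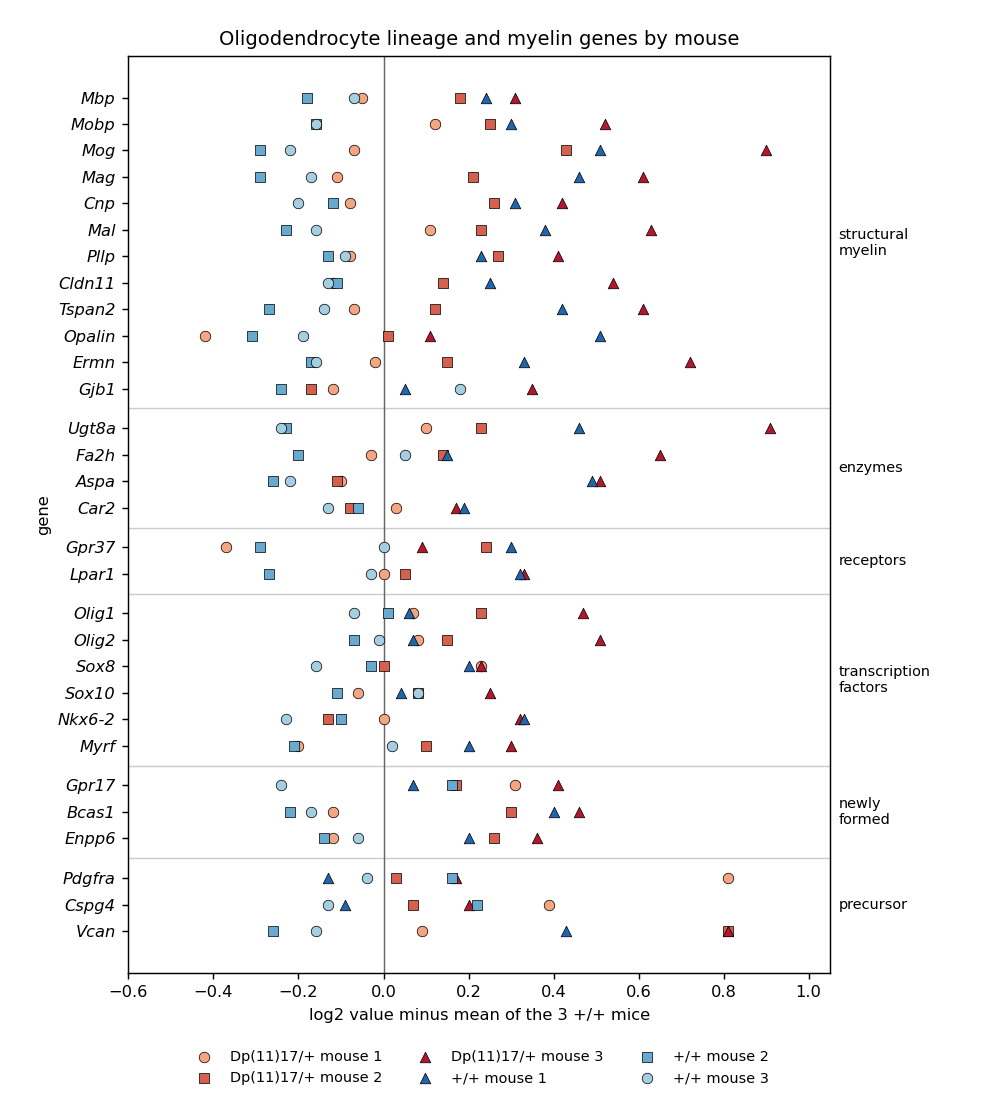
Each row is a gene, grouped by role, and each symbol is 1 mouse, placed by its log2 value minus the mean of the 3 +/+ mice. Dark triangles, which mark Dp(11)17/+ mouse 3 and +/+ mouse 1, sit to the right in most myelin genes, while Pdgfra and Cspg4 are highest in Dp(11)17/+ mouse 1.

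What the mature genes shared was the order of the mice. Duplication mouse 3 and wild-type mouse 1 were the 2 highest mice in 15 of the 18 mature genes (structural proteins, enzymes and receptors), a pattern found in 7.1% of all genes and in 8.81% of those that averaged at least 6 on the log2 scale. This pattern was noticed in these data. The 3 mature genes that departed from it were Pllp, Gjb1 and Gpr37. Over the 18 genes, the mean lay 0.49 above the wild-type mean in duplication mouse 3, 0.33 above it in wild-type mouse 1 and 0.14 above it in duplication mouse 2. It lay at -0.07 in duplication mouse 1, -0.21 in wild-type mouse 2 and -0.12 in wild-type mouse 3. The genotypes thus interleaved: wild-type mouse 1 lay above duplication mice 1 and 2, while the other wild-type mice were the lowest of the 6. The median range over the 6 mice was 0.73 on the log2 scale for the 18 genes and 0.38 for all genes at 6 or more.

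Among the structural proteins, Mog, a glycoprotein on the outer face of the sheath, varied most. Its log2 values were 7.36, 7.86 and 8.33 in duplication mice 1, 2 and 3 and 7.94, 7.14 and 7.21 in wild-type mice 1, 2 and 3. The groups overlapped, with wild-type mouse 1 above duplication mice 1 and 2. The log2 fold change was 0.42 (SE 0.29, limma adjusted p = 0.994), 0.67 without wild-type mouse 1 and 0.18 without duplication mouse 3. The distance from the lowest to the highest mouse, 1.19 on the log2 scale, was 2.28-fold. Mag, an adhesion protein on the inner face next to the axon, had 8.76, 9.08 and 9.48 in duplication and 9.33, 8.58 and 8.70 in wild-type mice. Its highest mice were again duplication mouse 3 and wild-type mouse 1, and its log2 fold change was 0.23 (SE 0.24), 0.05 without duplication mouse 3 and 0.40 without duplication mouse 1.

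The same order of mice was seen in genes of compact myelin and of the loops beside it. Mbp, whose protein holds the inner faces of the membrane together, had log2 values of 12.32, 12.55 and 12.68 in duplication and 12.61, 12.19 and 12.30 in wild-type mice. Its log2 fold change was 0.15 (SE 0.14), or 0.07 without duplication mouse 3 and 0.25 without duplication mouse 1, and the group means were 12.52 ± 0.18 and 12.37 ± 0.22 (SD, n = 3). Mobp, another basic protein of compact myelin, had 11.07, 11.20 and 11.47 against 11.25, 10.79 and 10.79, a log2 fold change of 0.30 (SE 0.16), or 0.19 and 0.39 without those mice in turn. Cnp, a phosphodiesterase of the uncompacted loops, had 11.62, 11.96 and 12.12 against 12.01, 11.58 and 11.50, a log2 fold change of 0.20 (SE 0.18), or 0.09 and 0.34. In all 3 genes wild-type mouse 1 lay above duplication mice 1 and 2, so that the groups overlapped. Mal and Pllp, related membrane proteins with a shared tetraspan fold, had log2 fold changes of 0.33 (SE 0.20) and 0.20 (SE 0.16). Without duplication mouse 3 these were 0.18 and 0.09, and without duplication mouse 1 they were 0.43 and 0.34. Pllp had 7.74, 8.09 and 8.23 in duplication and 8.05, 7.69 and 7.73 in wild-type mice, with duplication mouse 2 just above wild-type mouse 1.

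Cldn11, the claudin of myelin tight junctions, Tspan2, a tetraspanin, and Ermn, a cytoskeletal protein of the sheath, had log2 fold changes of 0.19, 0.22 and 0.28. Without duplication mouse 3 these were 0.01, 0.02 and 0.07, and without duplication mouse 1 they were 0.34, 0.36 and 0.44. Opalin, a sialylated membrane protein of oligodendrocytes, was the 1 structural gene with a lower duplication mean. Its log2 values were 7.32, 7.75 and 7.85 in duplication and 8.25, 7.43 and 7.55 in wild-type mice, so wild-type mouse 1 was highest and duplication mouse 1 lowest. The log2 fold change of -0.10 (SE 0.24) turned to 0.15 without wild-type mouse 1 and to 0.06 without duplication mouse 1. Gjb1, a connexin of gap junctions, was dim, between 4.90 and 5.49, and its log2 fold change was 0.02 (SE 0.17). That sign turned without duplication mouse 3 (-0.14) and when quantile normalization was run again (-0.001).

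Among the enzymes, Ugt8a, which makes the galactolipid galactosylceramide of myelin, behaved like Mog. Its log2 values were 8.42, 8.55 and 9.23 in duplication and 8.78, 8.09 and 8.08 in wild-type mice, and wild-type mouse 1 lay above duplication mice 1 and 2. The log2 fold change was 0.42 (SE 0.27), 0.65 without wild-type mouse 1 and 0.17 without duplication mouse 3. Fa2h, which hydroxylates the fatty acids of those lipids, had 7.83, 8.0 and 8.51 against 8.01, 7.66 and 7.91, a log2 fold change of 0.25 (SE 0.19), or 0.06 without duplication mouse 3 and 0.40 without duplication mouse 1. Aspa, which splits N-acetylaspartate, had 6.56, 6.55 and 7.17 against 7.15, 6.40 and 6.44. Duplication mouse 3 and wild-type mouse 1 were thus nearly level and apart from the other 4, and the log2 fold change was 0.09 (SE 0.25), or -0.11 without duplication mouse 3. Car2, a carbonic anhydrase, varied least of the mature genes, between 9.78 and 10.10, with a log2 fold change of 0.04 (SE 0.12) and an interval of -0.23 to 0.31. Its sign turned without duplication mouse 3 (-0.03).

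The receptors Gpr37 and Lpar1, both G protein-coupled and found on maturing oligodendrocytes, had log2 fold changes of -0.02 (SE 0.20) and 0.13 (SE 0.17). Gpr37 had 7.30, 7.91 and 7.76 in duplication and 7.97, 7.38 and 7.67 in wild-type mice. Here duplication mouse 2 lay above duplication mouse 3, and the sign turned without wild-type mouse 1 (0.13), without duplication mouse 1 (0.16) and under cyclic loess scaling (0.01). The sign of Lpar1 turned without wild-type mouse 2 (-0.01), and its value was 0.02 without duplication mouse 3. Another probe set of Lpar1, at a mean of 6.39 against 6.49 for the one used, gave 0.58 (SE 0.30).

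**Figure D2:**
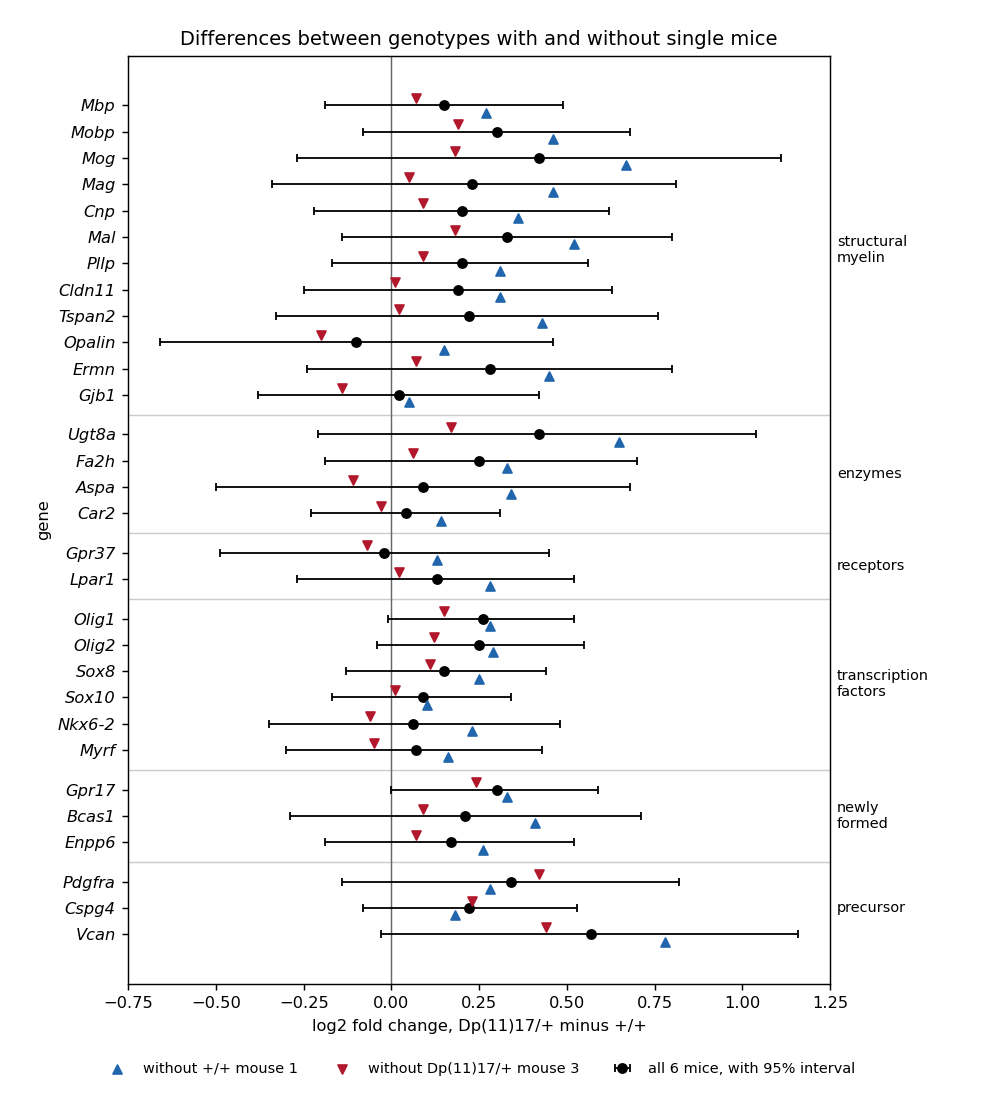
Black points are log2 fold changes over all 6 mice with the 95% interval from limma, blue triangles the values without +/+ mouse 1, and red triangles those without Dp(11)17/+ mouse 3. In the 18 mature genes the blue values lie to the right of the black and the red to the left, from a median of 0.33 to one of 0.05.

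The mature genes therefore followed which mice were counted. Their median log2 fold change was 0.20 with all mice, 0.05 without duplication mouse 3, 0.33 without wild-type mouse 1, 0.34 without duplication mouse 1, 0.11 without wild-type mouse 2 and 0.13 without wild-type mouse 3. With array weights it was 0.10. With duplication mouse 2 as the 1 duplication mouse, a value with no test, it was 0.17. The genotypes overlapped in all 18. Over the 30 members, 3 genes had all duplication mice above all wild-type mice and 0 had them below, against 2.7% of all genes above and 8.29% in either direction. Without wild-type mouse 1 the count of genes that did not overlap was 18 of 30, against 21.1% of all genes. All 18 were higher, and 12 of them were mature genes. Wild-type mouse 1 was the highest wild-type mouse in 17 of the 18 mature genes, so leaving it out raises their differences. This share of all genes and those that follow count either direction. Without duplication mouse 3 the count was 3 of 30, against 15.6% of all genes, and without wild-type mouse 3 also 3, against 15.5%. It was 7 without duplication mouse 1 (16.2% of all genes), 5 without duplication mouse 2 (24.9%) and 5 without wild-type mouse 2 (16.5%). The unadjusted p under 0.05 without wild-type mouse 1 belonged to Mobp, Mal, Mog, Ugt8a and Vcan, with log2 fold changes of 0.46, 0.52, 0.67, 0.65 and 0.78, and none of these passed the adjustment over all probe sets.

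The 3 genes whose groups did not overlap were Olig1, Olig2 and Gpr17. Olig1 and Olig2 encode helix-loop-helix factors that specify the lineage and lie side by side on chromosome 16. Olig1 had log2 values of 10.28, 10.44 and 10.68 in duplication and 10.27, 10.22 and 10.14 in wild-type mice. Duplication mouse 1 and wild-type mouse 1 were nearly level, and the log2 fold change was 0.26 (SE 0.11, interval -0.01 to 0.52, limma adjusted p = 0.994), or 0.15 without duplication mouse 3. Olig2 had 6.04, 6.11 and 6.47 in duplication and 6.03, 5.89 and 5.95 in wild-type mice, again with mouse 1 of each genotype nearly level. Its log2 fold change was 0.25 (SE 0.13), or 0.12 without duplication mouse 3. The gap between the lowest duplication mouse and the highest wild-type mouse was 0.013 for Olig1, 0.016 for Olig2 and 0.011 for Gpr17. Under quantile normalization run again the groups of Olig1 overlapped (-0.012), and with arrays centred on their medians those of Gpr17 did (-0.045). In Olig1 and Olig2 the 3 wild-type mice were close, with ranges of 0.13 and 0.14, so wild-type mouse 1 did not stand apart as it did in the myelin genes.

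The other factors lay closer to 0. Sox10, the lineage factor that also binds many myelin genes, had 7.30, 7.44 and 7.61 in duplication and 7.40, 7.25 and 7.44 in wild-type mice, a log2 fold change of 0.09 (SE 0.11), or 0.01 without duplication mouse 3 and 0.16 without duplication mouse 1. A dimmer probe set of Sox10 gave -0.13, and the mean of its probe sets -0.04. Its relative Sox8 had a log2 fold change of 0.15 (SE 0.12). Myrf had 7.44, 7.74 and 7.94 against 7.84, 7.43 and 7.66, and its log2 fold change of 0.07 (SE 0.16) turned negative without duplication mouse 3 (-0.05). Wild-type mouse 1 was among its 2 highest mice, as in the genes of the sheath. Nkx6-2, a homeodomain factor of maturing oligodendrocytes, was dim, between 4.19 and 4.75, with a log2 fold change of 0.06 (SE 0.18), or -0.06 without duplication mouse 3. Over the 6 factors the median log2 fold change was 0.12. It was 0.06 without duplication mouse 3, 0.18 without duplication mouse 1 and 0.24 without wild-type mouse 1.

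Gpr17, a receptor of cells that have left the precursor stage, had 7.73, 7.59 and 7.83 in duplication and 7.49, 7.58 and 7.18 in wild-type mice. Duplication mouse 2 and wild-type mouse 2 were nearly level, and the log2 fold change was 0.30 (SE 0.13, unadjusted p = 0.0492, limma adjusted p = 0.994). Bcas1, which marks newly myelinating cells, had 10.00, 10.42 and 10.58 against 10.52, 9.90 and 9.95, the order seen in the mature genes, and a log2 fold change of 0.21 (SE 0.21), or 0.09 without duplication mouse 3 and 0.38 without duplication mouse 1. Enpp6, a choline phosphodiesterase of newly formed oligodendrocytes, was dimmer, between 5.05 and 5.55, with a log2 fold change of 0.17 (SE 0.15), or 0.07 and 0.31 without those mice.

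Of the 3 precursor genes, Pdgfra and Cspg4 did not follow the order of the myelin genes, while Vcan came close to it. Pdgfra had 8.51, 7.73 and 7.87 in duplication and 7.57, 7.86 and 7.66 in wild-type mice. Duplication mouse 1 was highest, at 0.81 above the wild-type mean, and the other duplication mice lay within or next to the wild-type values. Its log2 fold change was 0.34 (SE 0.20), with the lowest value of 0.10 when duplication mouse 1 was left out. Cspg4 had 5.82, 5.50 and 5.63 against 5.34, 5.65 and 5.30, so duplication mouse 1 was highest here too, and its log2 fold change was 0.22 (SE 0.13), or 0.14 without that mouse. Vcan, the matrix proteoglycan versican, had 4.54, 5.26 and 5.26 against 4.88, 4.19 and 4.29. Duplication mice 2 and 3 were highest and wild-type mouse 1 lay above duplication mouse 1, the order seen in Pllp. The log2 fold change of Vcan was 0.57 (SE 0.25). Its other 7 probe sets were dimmer still, and their values lay between -0.05 and 0.38. The value of 0.38 came from a probe set at a mean of 3.33 (limma unadjusted p = 0.00847, adjusted p = 0.994). In duplication mouse 1, where Pdgfra and Cspg4 were highest, 11 of the 12 structural genes were at their lowest among the duplication mice. That mouse also had high striatum markers and low CA1 and dentate markers, and the part of this in these values was not tested.

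**Figure D3:**
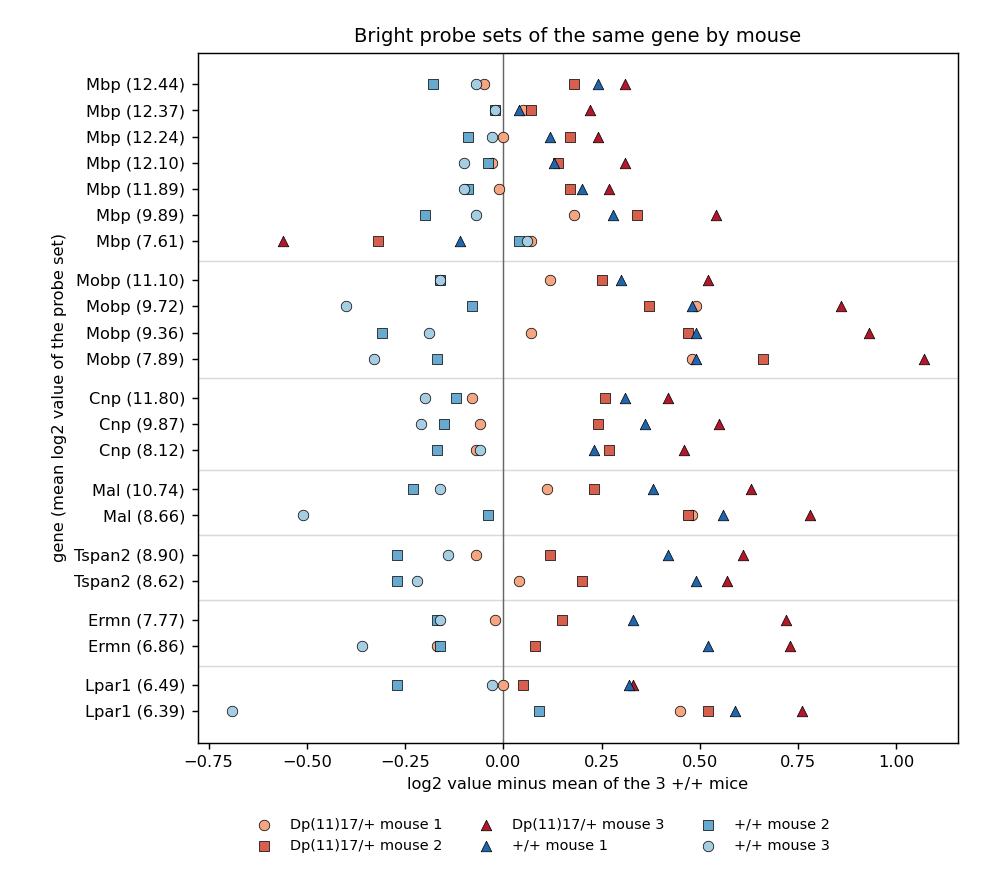
Each row is a probe set that averaged at least 6 on the log2 scale, labelled by its gene and that mean, and each symbol is 1 mouse, placed by its log2 value minus the mean of the 3 +/+ mice. Dp(11)17/+ mouse 3 is highest in every probe set shown but the Mbp one at 7.61, where it is lowest, while +/+ mouse 1 changes place with other mice.

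A total of 16 members had more than 1 probe set, which gives 37 further probe sets that the values above did not use. They come from the same arrays and are not independent of them. Of the 15 that averaged at least 6, 14 had higher duplication means, and duplication mouse 3 and wild-type mouse 1 were the 2 highest mice in 7. For Mbp, the probe set at a mean of 9.89 had a log2 fold change of 0.35 (SE 0.15), against 0.11 to 0.15 at the 5 probe sets above 11. The probe set at a mean of 7.61 had the opposite sign, -0.27 (SE 0.16), with 7.82, 7.43 and 7.19 in duplication and 7.64, 7.79 and 7.81 in wild-type mice. For Mobp, the 4 probe sets at 6 or more gave log2 fold changes of 0.30, 0.57, 0.50 and 0.74, with the smallest at the brightest. The 3 probe sets of Cnp gave 0.20, 0.24 and 0.22. The other probe set of Mal, at a mean of 8.66, gave 0.57 (SE 0.25), against 0.33 at the one used. Of the 37 further probe sets, 3 had an unadjusted limma p under 0.05, against 2.82% of all probe sets. They were those of Vcan at a mean of 3.33 and of Mobp at 9.72 and 7.89, each with an adjusted p of 0.994.

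Genes of the same biology that are no members were read from lists, whose counts stand beside 41.7% of all genes with a higher duplication mean and 2.82% of all probe sets with an unadjusted p under 0.05. Of 51 measured genes of mature oligodendrocytes, 35 were higher and 16 lower, and the median difference was 0.08 on the log2 scale. Of these, 0 passed limma adjusted over all probe sets or reached an unadjusted p under 0.05. In 30 of the 51 duplication mouse 3 and wild-type mouse 1 were again the 2 highest mice. The smallest p among them belonged to Ptgds, a prostaglandin synthase also made by meninges, with a log2 fold change of -0.30 (SE 0.15), to Klk6, a protease, at 0.47 (SE 0.28), and to Carns1, the carnosine synthase, at 0.17 (SE 0.10). Of 33 precursor and newly formed genes, 27 were higher and 6 lower, 0 passed and 3 had an unadjusted p under 0.05. In 0 of these 33 were duplication mouse 3 and wild-type mouse 1 the 2 highest mice. The 3 genes were the matrix proteoglycans Bcan at 0.25 (SE 0.08) and Ncan at 0.22 (SE 0.07), and the glutamate receptor subunit Gria3 at 0.29 (SE 0.10), and all 3 are also expressed by astrocytes or neurons. Of 44 genes of signals and regulators of myelination, 29 were higher and 15 lower, 0 passed and 5 had an unadjusted p under 0.05, among them the growth factor receptor genes Igf1r at 0.38 (SE 0.13) and Fgfr3 at 0.28 (SE 0.11), and Qk, an RNA-binding protein of myelinating cells, at 0.28 (SE 0.11). Of 22 genes of myelin lipid synthesis, 16 were higher and 6 lower, 0 passed and 1 had an unadjusted p under 0.05, Scd1, a fatty acid desaturase, at 0.46 (SE 0.17). Far1 and Fads1 followed at 0.28 (SE 0.13) and 0.15 (SE 0.08).

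**Figure D4:**
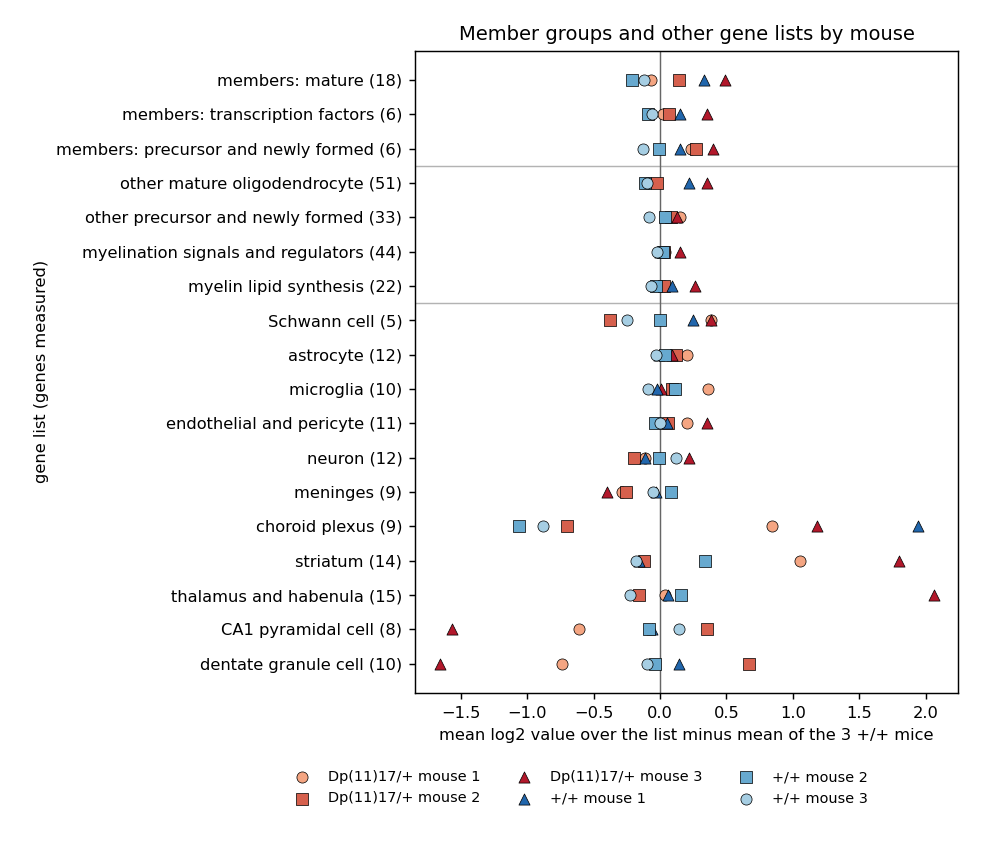
Each symbol is 1 mouse, placed by the mean log2 value over a gene list minus the mean of the 3 +/+ mice, for the member groups (top), related lists (middle) and lists for other cell types and regions (bottom). In the mature lists Dp(11)17/+ mouse 3 and +/+ mouse 1 are highest, and in the choroid plexus list +/+ mouse 1 is highest, at 1.94.

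Markers of other tissue also varied between mice, in orders that only partly matched that of the mature genes. Choroid plexus markers were higher in the duplication group in 8 of 9, with list means of 4.42 to 6.31 in duplication and 4.07 to 7.07 in wild-type mice. Relative to the wild-type mean they were at 1.94 in wild-type mouse 1, 1.18 in duplication mouse 3 and 0.84 in duplication mouse 1, and between -1.06 and -0.70 in the other 3. The log2 value of Ttr, the transthyretin gene of choroid plexus, was 13.07 in wild-type mouse 1 and 12.96 in duplication mouse 3. It was 12.99 in duplication mouse 1, 10.84 in duplication mouse 2, and 8.54 and 9.89 in wild-type mice 2 and 3. Thalamus and habenula markers had higher duplication values in 14 of 15 genes, and their list means ran from 4.66 to 6.88 in duplication and from 4.59 to 4.98 in wild-type mice. They stood at 2.06 in duplication mouse 3 and at 0.06 in wild-type mouse 1, so only the first of the 2 mice with high myelin genes had them. Striatal markers were higher in 14 of 14, with list means of 5.36 to 7.28 in duplication and 5.30 to 5.82 in wild-type mice, and stood at 1.80 in duplication mouse 3 and -0.16 in wild-type mouse 1. The part of these tissues in the values of the myelin genes was not tested.

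Of the 5 measured markers of Schwann cells, which make peripheral myelin, 3 were higher and 2 lower, and list means were 3.95 to 4.71 in duplication and 4.08 to 4.58 in wild-type mice. Pmp2, a fatty acid carrier of peripheral myelin, was between 2.69 and 2.91, near the lowest values of the arrays. Ncmap and Ngfr were also dim, at 3.37 to 3.69 and 3.75 to 4.28. Pmp22 was brighter, at 6.47 to 7.35, and highest in duplication mouse 3, and the remaining marker ranged from 3.17 to 6.21. As a sign of RNA quality, actin's 3' control probe set exceeded its 5' one, in log2 units, by 1.69, 1.47 and 1.74 in duplication and 1.63, 1.62 and 1.45 in wild-type mice. For GAPDH the same difference was 0.47, 0.33 and 0.44 in duplication and 0.57, 0.37 and 0.38 in wild-type mice. Wild-type mouse 1 was thus highest for GAPDH and duplication mouse 3 highest for actin, while duplication mouse 1 was next highest for both. The part of RNA quality in the values of the members was not tested. Astrocyte markers were higher in 11 of 12 genes (median difference 0.17), microglial markers in 10 of 10 (0.12), and endothelial and pericyte markers in 9 of 11 (0.22). In 0 of these 3 lists' genes were duplication mouse 3 and wild-type mouse 1 the 2 highest mice. Neuronal markers were higher in 5 of 12 (-0.04). Meningeal markers were higher in 2 of 9 (-0.33), and 2 of the 9 had an unadjusted p under 0.05, both lower. Such a p was also reached by 2 astrocyte, 2 microglial and 2 endothelial and pericyte genes, all higher, and by 0 neuronal ones. On these arrays 41.7% of all genes were higher and 2.82% of all probe sets had such a p. The difference between these lists and the members was not tested.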

How the data were processed

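RNA of 6 mice was measured on 1-colour Affymetrix mouse arrays. The deposited log2 values, 1 per probe set, were made by the authors with RMA, per the submitters' processing notes, with no version given. Pools are mentioned in the labelling protocol although each record names 1 individual, and the extraction protocol does not list hippocampus. Values lay between 2.14 and 13.09 with array medians of 3.74 to 3.79 and were used as deposited. RMA scales arrays to a common distribution, and very bright probe sets can register less than the full difference. After 64 control probe sets were left out, 45037 were tested, of which 34945 had 1 gene symbol, 932 several and 9160 none. Limma 3.58.1 in R 4.3.3 (lmFit, eBayes without trend, two-sided, 7.11 degrees of freedom) compared genotypes, with Benjamini-Hochberg adjustment over all 45037 and a threshold of 0.05. It was tested on simulated data. With 3 mice against 3, an exact permutation test cannot go below p = 0.1. The members, lists and motifs were chosen with earlier results of these data known. All members could be named, and of each other list the 3 genes with the smallest p, besides marker genes and checks listed by name. Labels of 4 listed genes were updated through Entrez identifiers. Gene order and promoters came from RefSeq tables of GRCm38.p6. Each array is 1 labelled individual, and litter or cohort is not given. Alternatives were 3 scalings, 2 filters on dim probe sets, 2 variance models, 2 probe set choices, each mouse left out, and duplication mouse 2 as the only duplication mouse.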

Additional observations from a re-analysis of the deposited data

How the results depend on the processing

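No member passed adjustment over all probe sets under any of the 15 alternatives with a test, the smallest adjusted p being 0.803. The count of members with an unadjusted p under 0.05, 1 in the fit of all mice, was 0 with arrays centred on their medians or with probe sets of a mean of at least 6 or at least 4, 2 with cyclic loess or the probe set of the largest variance, and 0 to 5 with 1 mouse left out. The count whose groups did not overlap, 3, was 2 with quantile normalization again (without Olig1) and with arrays centred on their medians (without Gpr17), 4 with the mean of probe sets (with Vcan), and 3 to 18 with 1 mouse left out. The median of the precursor and newly formed members, 0.26, was 0.13 with the mean of a gene's probe sets. The medians of the mature genes and of the factors moved by less than the spread between mice, and lay at 0.05 to 0.34 and 0.06 to 0.24 with 1 mouse left out. Of 475 gene values under alternatives, 448 kept their sign, and 21 genes kept it throughout. With 1 mouse left out, signs turned for Opalin (-0.26 to 0.15), Gpr37 (-0.16 to 0.16), Gjb1 (-0.14 to 0.12), Aspa (-0.11 to 0.34), Car2 (-0.03 to 0.14), Nkx6-2 (-0.06 to 0.23), Myrf (-0.05 to 0.20) and Lpar1 (-0.01 to 0.28). With duplication mouse 2 alone they turned for Opalin (0.01), Gjb1 (-0.16), Aspa (-0.12), Car2 (-0.08), Gpr37 (0.24) and Nkx6-2 (-0.13). Gjb1 was at -0.001 with quantile normalization again, Gpr37 at 0.01 with cyclic loess, Myrf at -0.0043 with array weights, and Sox10 at -0.04 with the mean of its probe sets and -0.13 with the most variable one. The cause was not tested. No paired analysis was possible because the labels give the genotypes no shared replicate numbers. Precision is limited by the 3 arrays per group.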
